A study of Homo sapiens with 9 samples.

Results

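TINCR, SOX2-OT, SETD5-AS1, LINC00641, AC005943.5 and BCYRN1 are 6 of the long noncoding RNAs (lncRNAs) named in the study's experiment with the CBX7 reader. BCYRN1 served there as a negative control. They were taken by gene name from a count table of 57820 genes, which held each of them exactly once. The libraries of that table came from another reader, CBX1. All 9 were made by Chrom-seq from HEK293T cells, an established human embryonic kidney line, with 3 replicates in each of 3 groups. In the CBX1 group the cells expressed the chromodomain of mouse CBX1 fused to a chain of SunTag (GCN4) epitopes. In the CBX1_W42A group the fused chromodomain was mutated (W42A), and in the Control group no reader was fused to the epitope chain. The column labels of all 3 groups, Control included, also carry the tag NLS, which the labels do not explain. Every group also expressed APEX2 fused to the antibody fragment that binds these epitopes, from a chicken β-actin promoter. The stated labelling was the same throughout. At 48 h of expression the cells were given biotin-aniline (500 μM, 30 min), and the reaction was started with hydrogen peroxide (1 mM) and stopped after 1 min. The plasmids were transfected transiently, so that the amount of reader per cell was not fixed by the design, and no library of unlabelled input RNA was analysed here. The sample records of CBX1_W42A are numbered apart from the consecutive ones of Control and CBX1. Whether these libraries were prepared together with the others is not stated. A difference of preparation, if there was one, would coincide with the mutant group.

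Chromodomains of the CBX family read methylated lysines of histone H3. CBX1 (HP1β) binds H3K9me3, the mark of constitutive heterochromatin, through a cage of aromatic residues to which the tryptophan changed in W42A belongs, whereas CBX7 is a subunit of Polycomb complexes and reads H3K27me3. A reader brings APEX2 to the chromatin that carries its mark, and the enzyme then biotinylates RNA within reach, mainly at guanosines. The labelled RNA is caught on streptavidin and sequenced, so a higher count with a reader than without it means more labelled RNA. A change in an RNA's abundance and a change in its labelling cannot be told apart in these counts. lncRNAs are a mixed class in this respect, since some stay at the locus that makes them, some spread over chromatin and some act in the cytoplasm.

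Libraries held from 8379542 to 11082852 counts in all. All 5 markers of HEK293T cells were detected in every library, from at least 36 counts of PAX2 to at least 1899 counts of NEFM. Of the markers of the other human lines of the study, CDH17, NANOG and DPPA4 had 0 counts in the 9 libraries, whereas CDX2 had 205 to 344, LGR5 66 to 105, EPCAM 53 to 164 and VIL1 4 to 11. POU5F1 had at most 3 counts and TDGF1 at most 2 in a library. The way of counting was inferred from the counts: reads were assigned anywhere in a gene's span, introns included and by strand. Reads shared by several genes of a strand were dropped: 0 of 7910 genes nested within a gene of their strand have a count. Of 9345 genes nested within a gene of the opposite strand and overlapping none on their own, 3771 have a count.

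The study designed antisense oligonucleotides against SETD5-AS1 and LINC00641, and primers for AC005943.5. They are shown because they mark which stretch of each interval was taken to be the RNA. They are written 5′ to 3′ in lower case, with no part in capitals.
SETD5-AS1-ASO-1: atcaatgaggatgtcatcac
SETD5-AS1-ASO-2: tcttgctatcatgacaatag
SETD5-AS1-ASO-3: cttacgcaacggataaagcc
LINC00641-ASO-1: gatgtggagcaacagaaatg
LINC00641-ASO-2: gatagtggtatagtaactgg
AC005943.5-qRT5F: aagtcaagtgcccatccagg
AC005943.5-qRT5R: agcctggttcctgttcatgg
All 7 matched the reference genome (GRCh37) over their full length inside the span of their lncRNA, and all but LINC00641-ASO-1, which had 2 full matches in the genome, matched there only. The SETD5-AS1 oligonucleotides lie antisense to the RNA at chr3:9432018-9432037, chr3:9432087-9432106 and chr3:9432132-9432151. This is 8113 to 8227 bases from its 5′ end and within an exon of the lncRNA in GENCODE v44 lifted to GRCh37, where it is called THUMPD3-AS1. No other gene of the count table lies on that strand there. The LINC00641 oligonucleotides lie at chr14:21668966-21668985 and chr14:21668698-21668717, in an exon of LINC00641, 6075 and 6343 bases from its 5′ end. The AC005943.5 primers bound an 88-base stretch, chr19:1574525-1574612, that GENCODE v44 assigns to an exon of MBD3 on the same strand.

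The sixth member shows how far an annotation can be from the RNA. BCYRN1 is the gene of BC200, a short RNA polymerase III transcript that derives from an Alu element and represses translation in the cytoplasm, mainly of neurons. In the count table BCYRN1 is an interval of 13458 bases, chr2:47558199-47571656 on the plus strand. In GENCODE v44 the gene with the same identifier is a small cytoplasmic RNA of 200 bases, which is 1.49% of that interval. The libraries were made after selection of polyadenylated RNA. Where within the BCYRN1 interval the counted reads lay was not analysed here.

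The other intervals also differ in how well they isolate the lncRNA. TINCR, an RNA required for terminal differentiation of the epidermis, covers 9868 bases on the minus strand (chr19:5558178-5568045) and overlaps no other gene of the table. GENCODE v44 classes it as protein coding. LINC00641 covers 6822 bases on the minus strand (chr14:21668238-21675059), overlaps nothing, and starts 2.24 kb downstream of HNRNPC, which encodes a nuclear RNA-binding protein and lies on the same strand. AC005943.5 covers only 1880 bases on the minus strand (chr19:1573595-1575474), 1.16 kb downstream of MBD3 on the same strand. GENCODE v44 has no gene of that identifier near this place, and its MBD3, a subunit of the NuRD chromatin remodelling complex, extends over 100% of the interval. SETD5-AS1 covers 48891 bases on the minus strand (chr3:9391373-9440263) and starts head to head with SETD5, a gene for a SET domain protein of chromatin, with which it shares 965 bases on opposite strands. The whole of THUMPD3, a gene for an RNA-modifying enzyme, lies within it on the plus strand over 23950 bases. At its 3′ end it shares 13365 bases of the minus strand with SRGAP3 and 13615 with RP11-380O24.1. Reads in that part were dropped, so SETD5-AS1 could be counted over 35.3 kb, which is 72.2% of its span. SOX2-OT covers 847111 bases of the plus strand (chr3:180707558-181554668) and contains SOX2, the pluripotency factor, on the same strand.

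**Figure D1:**
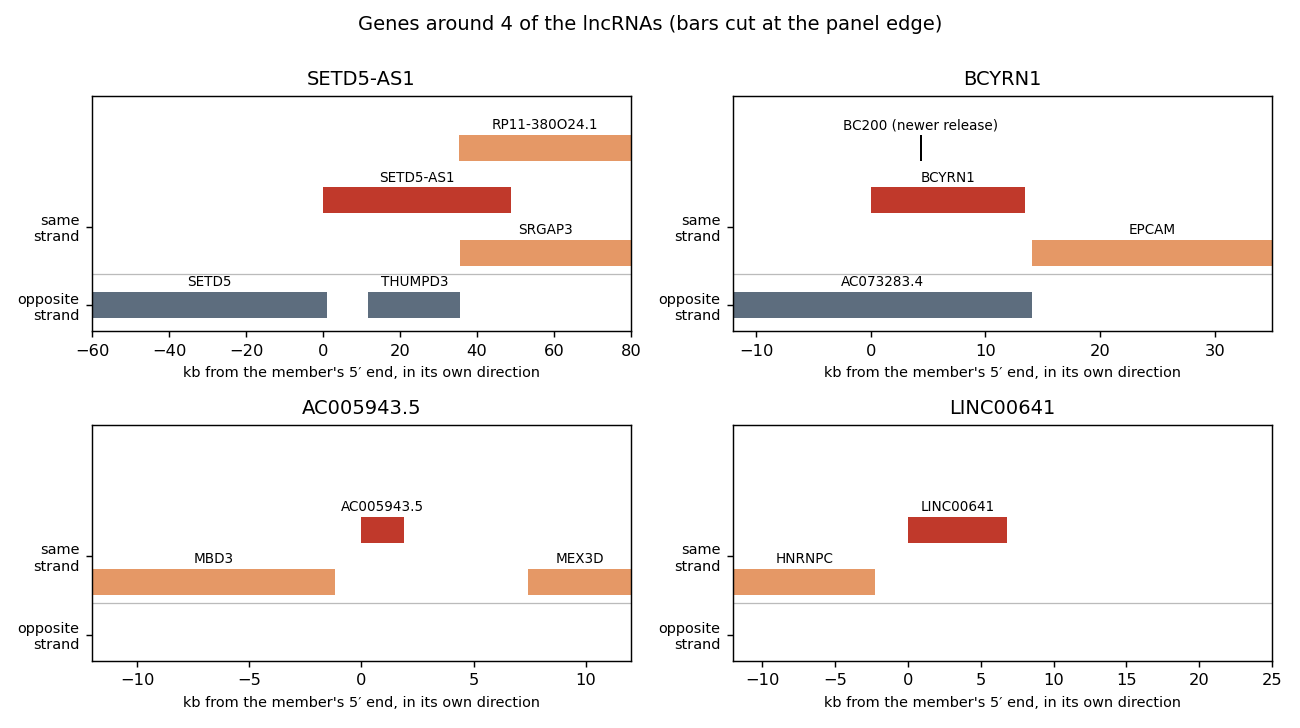
Genes around SETD5-AS1, BCYRN1, AC005943.5 and LINC00641 in the annotation of the counts, with distance in kb from the 5′ end of the lncRNA in its own direction. Red bars are the lncRNAs, orange bars genes on the same strand and grey bars genes on the opposite strand; the black mark shows BC200 in the newer release, 200 bases within an interval of 13458.

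The 6 lncRNAs differed widely in level. Levels between genes were compared as CPM (counts per 1e+06 counts of the library, scaled by TMM factors) per kb of span in which a read could be counted. In the control, LINC00641 was the highest at 5.26 ± 0.213 CPM per kb (SD, n = 3), followed by AC005943.5 at 1.61 ± 0.521, SETD5-AS1 at 0.986 ± 0.0393, TINCR at 0.569 ± 0.189 and BCYRN1 at 0.349 ± 0.199. SOX2-OT was far below at 0.00190 ± 0.000170 CPM per kb. Only TINCR and BCYRN1 were neighbours whose control libraries overlapped. In either reader group AC005943.5 and SETD5-AS1 overlapped instead, and the other neighbours in the order were separate. The spans include introns, so this order depends on the annotated length. In CPM alone the control order was LINC00641 (35.9), SETD5-AS1 (34.8), TINCR (5.62), BCYRN1 (4.70), AC005943.5 (3.02) and SOX2-OT (1.6). Over genomic spans, introns included, the G content of the members lay on both sides of the median of the genes tested. Base composition of the labelled RNA itself was not analysed. On the RNA strand G made up 27.0% of the TINCR span, 24.5% of AC005943.5, 23.5% of BCYRN1, 21.5% of SETD5-AS1, 19.98% of LINC00641 and 19.3% of SOX2-OT, beside a median of 23.0% over 18835 of the 18837 genes tested with CBX1.

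The comparison of CBX1 with the control asks what the H3K9me3 reader labels beyond APEX2 on an epitope chain without a reader. In it TINCR, SOX2-OT and SETD5-AS1 were enriched. LINC00641 rose by less than the minimum fold, and AC005943.5 and BCYRN1 did not pass the test. The test was edgeR's quasi-likelihood test over 18837 genes, and an RNA counted as enriched when its log2 fold change reached 0.75 with a Benjamini-Hochberg adjusted p below 0.05. By that rule 3 of the 6 members were enriched and 0 depleted, where 7.06% of all genes were enriched and 0.34% depleted. Of the 4432 noncoding genes 14.5% were enriched. In 4 of the 6 members the lowest CBX1 library exceeded the highest control library, as in 17.6% of all genes. The median log2 fold change was 0.73 over the members, 0.49 over the noncoding genes and 0.03 over all genes. The members other than BCYRN1, the negative control, were named from CBX7 libraries set, as far as the study's supplement shows, against the same 3 control libraries, so a control library that happened to be low would favour them here too. Counts of members against the control are therefore a description.

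TINCR had 48, 39 and 64 counts in control replicates 1, 2 and 3, and 88, 129 and 118 in the CBX1 replicates. In CPM these were 4.68, 4.41 and 7.76 without a reader, and 9.78, 14.3 and 11.4 with CBX1. The lowest CBX1 library was above the highest control library. The level was 2.16 times that of the control (log2 fold change 1.11, SE 0.23, 95% interval 0.64 to 1.59, adjusted p = 0.00302 by edgeR). Among noncoding genes 78.2% had a lower log2 fold change.

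SETD5-AS1 gave the most precise of these differences. Its counts were 369, 311 and 274 in the control and 537, 599 and 685 with CBX1, or 35.9, 35.1 and 33.2 CPM against 59.7, 66.4 and 66.2 CPM. The control libraries lay within 3 CPM of each other, and all CBX1 libraries were above them. The level was 1.88 times the control (log2 fold change 0.91, SE 0.10, 95% interval 0.70 to 1.12, adjusted p = 2.6e-05 by edgeR). The genes that share its locus went different ways. SRGAP3, downstream on the same strand, had 11.1, 11.6 and 14.1 CPM in the control and 24.8, 24.6 and 20.6 CPM with CBX1, and was enriched (log2 fold change 0.95, SE 0.15, adjusted p = 0.000413 by edgeR). On the opposite strand, THUMPD3 was at -0.32 (adjusted p = 0.0444 by edgeR), under the minimum fold, and its adjusted p was above 0.05 in 7 of 9 other settings and in 4 of 6 omissions of a library. SETD5 was at -0.15 (adjusted p = 0.306). Neither gene antisense to SETD5-AS1 was enriched.

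**Figure D2:**
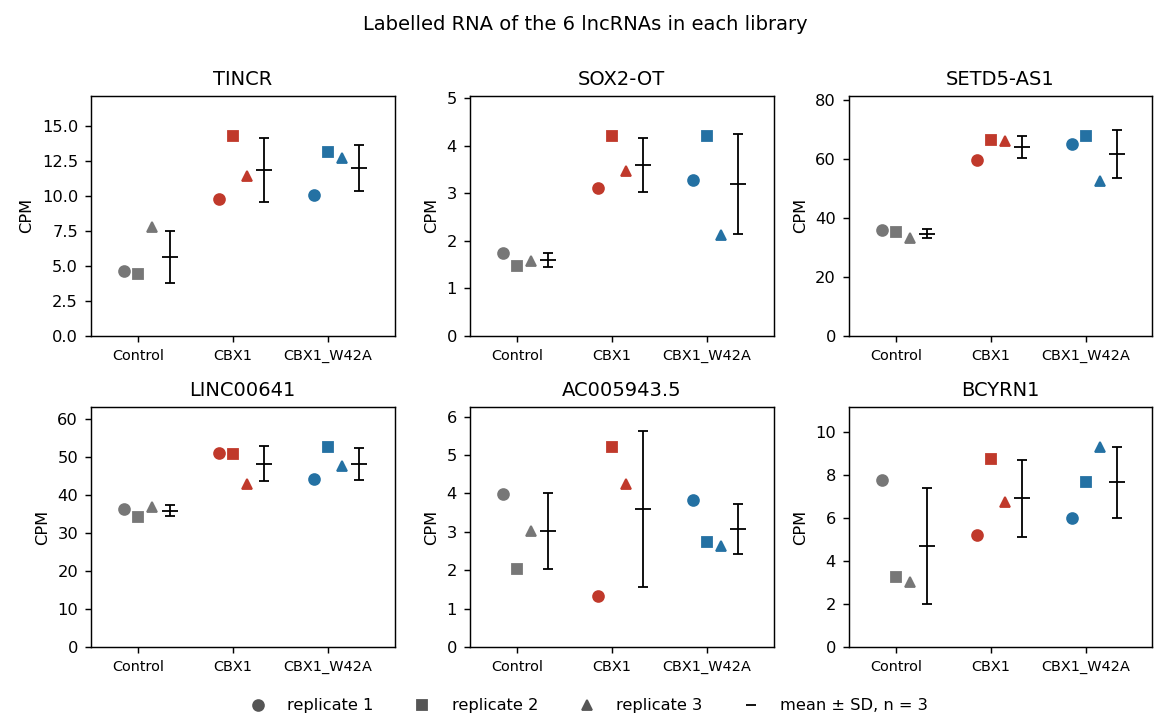
CPM of each lncRNA in the 3 Control, 3 CBX1 and 3 CBX1_W42A libraries, each panel from 0 on its own scale; symbols mark the replicates and black bars the mean ± SD. TINCR, SOX2-OT, SETD5-AS1 and LINC00641 are higher in every reader library than in every control library, and AC005943.5 and BCYRN1 are not.

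SOX2-OT, the transcript that runs across the SOX2 gene, had 18, 13 and 13 counts in the control and 28, 38 and 36 with CBX1. These were 1.75, 1.47 and 1.58 CPM against 3.11, 4.21 and 3.48 CPM, and the groups did not overlap. The level was 2.27 times the control (log2 fold change 1.18, SE 0.31, 95% interval 0.53 to 1.85, adjusted p = 0.014 by edgeR). Without CBX1 replicate 2 the call was lost (log2 fold change 1.06, adjusted p = 0.0558). SOX2 itself had 0 counts in all 9 libraries, but it lies inside SOX2-OT on the same strand, where the counting assigns no read, so this says nothing of its level. The counts of SOX2-OT could come from anywhere in 844 kb, introns included, and where its reads lay was not analysed here. A level per kb of exon was not computed. Its counts per kb of span were set beside those of odorant receptor genes, which are known to be expressed in the olfactory epithelium. The 324 of these that overlap no other gene of their strand cover 391.4 kb together. Summed over the 3 libraries of each group, SOX2-OT had 0.00191 CPM per kb in the control (Poisson 95% interval 0.00139 to 0.00256) and the olfactory receptor genes 0.00187 (0.00114 to 0.00288). With CBX1 the values were 0.00426 (0.00347 to 0.00517) and 0.00387 (0.00280 to 0.00522). With CBX1_W42A they were 0.00380 (0.00308 to 0.00464) and 0.00350 (0.00251 to 0.00474). The intervals of SOX2-OT and of the olfactory receptor genes overlapped in each group, and they cover counting error only. Both values are per kb of span, so they do not compare levels per kb of RNA. By library the olfactory receptor genes had 10, 10 and 0 counts in the control, 19, 13 and 11 with CBX1, and 14, 13 and 14 with CBX1_W42A. Their control value thus rests on 2 libraries at 0.00249 and 0.00289 CPM per kb and 1 with no count. The Poisson 95% interval of that library ends at 0.00114 CPM per kb. SOX2-OT had at least 13 counts in each control library.

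**Figure D3:**
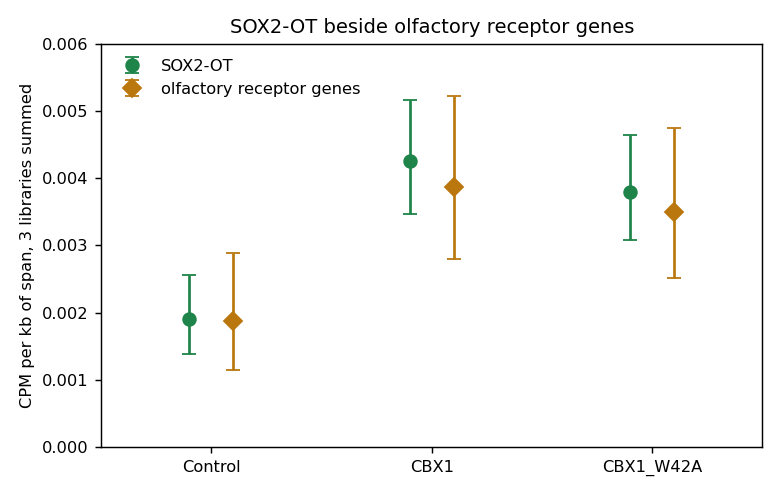
CPM per kb of span of SOX2-OT (circles) and of 324 olfactory receptor genes (diamonds), with the 3 libraries of a group summed and bars for the Poisson 95% interval. In the control both lie near 0.0019, with CBX1 at 0.00426 and 0.00387, and with CBX1_W42A at 0.00380 and 0.00350.

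LINC00641 had 374, 303 and 305 counts in the control and 461, 458 and 444 with CBX1, which corresponded to 36.4, 34.2 and 37.0 CPM against 51.2, 50.8 and 42.9 CPM. The groups were separate. The level was 1.37 times the control (log2 fold change 0.45, SE 0.11, 95% interval 0.23 to 0.68, adjusted p = 0.00756 by edgeR). It passed the test but not the minimum fold, and its interval ends below 0.75. Of the noncoding genes tested, 47.6% had a lower log2 fold change, so that LINC00641 stood near the middle of its class.

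AC005943.5 was irregular. Its counts were 41, 18 and 25 in the control and 12, 47 and 44 with CBX1, or 3.99, 2.03 and 3.03 CPM against 1.33, 5.21 and 4.25 CPM. The CBX1 group held both the lowest and the highest of the 6 libraries. The log2 fold change was 0.27 (SE 0.39, 95% interval -0.55 to 1.095, adjusted p = 0.657 by edgeR), and without CBX1 replicate 1 it was 0.66. MBD3, whose 3′ end reaches this interval in the newer annotation, had a log2 fold change of -0.03 (95% interval -0.25 to 0.18), and upper-quartile scaling turned it to 0.05.

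BCYRN1 had 80, 29 and 25 counts in the control and 47, 79 and 70 with CBX1. Control replicate 1 stood apart, with 7.79 CPM against 3.28 and 3.03 in the others, and was within the range of the CBX1 libraries, which had 5.22, 8.76 and 6.76 CPM. The log2 fold change was 0.55 (SE 0.31, 95% interval -0.09 to 1.203, adjusted p = 0.217 by edgeR). Without Control replicate 1 it was 1.146 and was called (adjusted p = 0.0139), so 1 library decided whether BCYRN1 counted as enriched. Why this library was high was not tested. AC073283.4 is its antisense partner, on the opposite strand over all 13458 bases. It had 2.34, 2.03 and 2.43 CPM in the control and 3.0004, 4.21 and 3.19 CPM with CBX1, which were separate but not called (log2 fold change 0.63, adjusted p = 0.14 by edgeR). EPCAM, a gene for an epithelial adhesion molecule that starts 0.64 kb downstream of BCYRN1 on the same strand, had a log2 fold change of -0.61 with CBX1 (adjusted p = 0.0362 by edgeR), under the minimum fold. Its adjusted p was above 0.05 in 5 of 9 other settings, DESeq2 among them (0.0518), and in 5 of 6 omissions of a library.

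In the comparison of CBX1_W42A with the control, which asks what remains when the chromodomain is mutated, TINCR and SETD5-AS1 were again enriched. SOX2-OT and LINC00641 were above the control in every library without passing edgeR's test at the settings used here, and AC005943.5 and BCYRN1 overlapped it. The comparison shares its control libraries with the one above, so each set of values stands on its own. Of the 6 members 2 were enriched and 0 depleted, where 0.974% of the 18680 genes tested were enriched and 0.0214% depleted. Of the 4330 noncoding genes 1.71% were enriched. In 4 of 6 members the groups did not overlap, as in 12% of all genes in that direction. Log2 fold changes had a median of 0.75 over the members, 0.34 over noncoding genes and 0.01 over all genes.

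TINCR had 111, 125 and 120 counts with CBX1_W42A, or 10.1, 13.2 and 12.7 CPM, all above the control. The level was 2.14 times the control (log2 fold change 1.099, SE 0.23, 95% interval 0.63 to 1.58, adjusted p = 0.0195 by edgeR), and 88.5% of noncoding genes had a lower value. This call depended on the number of libraries. It was lost without Control replicate 1 (adjusted p = 0.0901), Control replicate 2 (0.0505), CBX1_W42A replicate 2 (0.065) or CBX1_W42A replicate 3 (0.0691), while the log2 fold change stayed between 0.97 and 1.40 over all 6 omissions. SETD5-AS1 had 715, 646 and 498 counts, or 65.0, 68.0 and 52.7 CPM. Replicate 3 was the lowest of these and still above the highest control library at 35.9 CPM. The level was 1.78 times the control (log2 fold change 0.83, SE 0.12, 95% interval 0.58 to 1.09, adjusted p = 0.00193 by edgeR), and the call held in all 6 omissions of a library. SRGAP3 was at 15.2, 16.7 and 15.4 CPM and was not called (log2 fold change 0.37, adjusted p = 0.226), and SETD5 was at -0.43 (adjusted p = 0.0388 by edgeR), under the minimum fold and with an adjusted p above 0.05 in all 6 omissions of a library. THUMPD3 was at -0.37 (adjusted p = 0.134).

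SOX2-OT had 36, 40 and 20 counts with CBX1_W42A, or 3.27, 4.21 and 2.12 CPM. Replicate 3 was the closest to the control, whose highest library had 1.75 CPM. The log2 fold change was 0.99 (SE 0.36, 95% interval 0.26 to 1.74, adjusted p = 0.131 by edgeR). LINC00641 had 486, 501 and 450 counts, or 44.2, 52.7 and 47.6 CPM, and the log2 fold change was 0.42 (SE 0.12, 95% interval 0.17 to 0.67, adjusted p = 0.0609 by edgeR). In 5 of 9 other settings its adjusted p was below 0.05, with a lowest value of 0.0293 with upper-quartile factors and 0.0422 by DESeq2, but the minimum fold was not reached. AC005943.5 had 42, 26 and 25 counts, or 3.82, 2.74 and 2.64 CPM, within the range of the control, and a log2 fold change of 0.02 (95% interval -0.65 to 0.69). BCYRN1 had 66, 73 and 88 counts, or 6.0035, 7.68 and 9.31 CPM. Only Control replicate 1 prevented the groups from being separate, and the log2 fold change was 0.67 (SE 0.30, 95% interval 0.05 to 1.299, adjusted p = 0.221 by edgeR). Without that library it was 1.28 and the adjusted p was 0.0608.

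**Figure D4:**
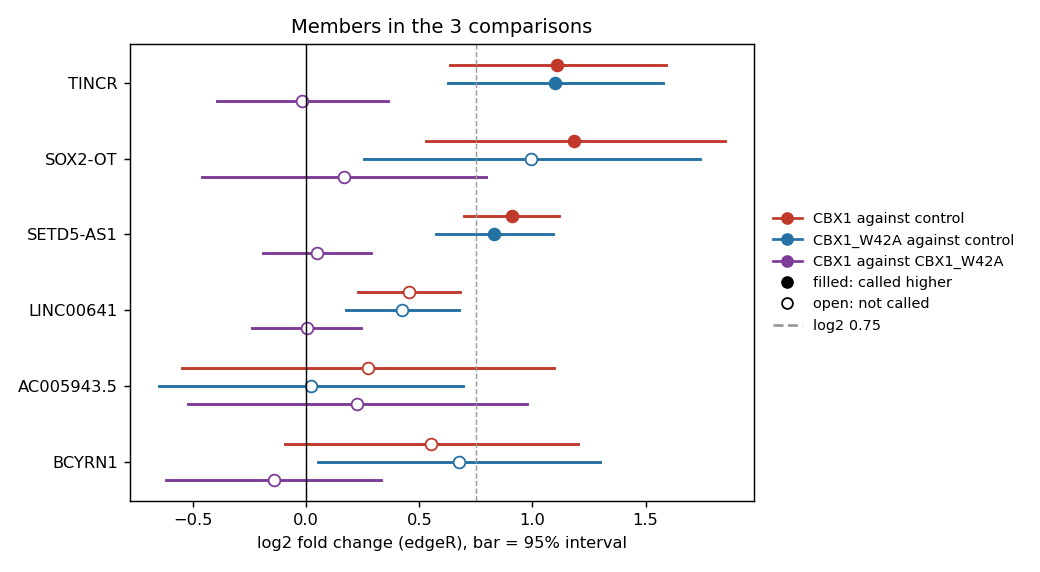
Log2 fold change of each lncRNA with its 95% interval in the 3 comparisons; filled circles were called and the dashed line marks the minimum of 0.75. The red and blue intervals of TINCR, SOX2-OT, SETD5-AS1 and LINC00641 lie above 0, as does the blue interval of BCYRN1, which was not called. All 6 purple intervals of CBX1 against CBX1_W42A contain 0.

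CBX1 against CBX1_W42A is the comparison that uses no control library, and so shares no library with the CBX7 experiment from which the members were taken. None of the 6 lncRNAs differed detectably between the readers. The counts of members called were 0 higher and 0 lower by edgeR, where 0.795% of the 19360 genes tested were called higher with CBX1 and 0.201% lower. Of the 4767 noncoding genes 0.923% were called higher. The count was also 0 by DESeq2, which called 0.863% of genes higher, and 0 members had an unadjusted p below 0.05 in edgeR. The libraries of the readers overlapped for each member, whereas in 10.3% of all genes every CBX1 library was the higher. TINCR had a mean of 11.8 ± 2.29 CPM with CBX1 and 11.98 ± 1.65 CPM with CBX1_W42A (SD, n = 3 each), with a log2 difference of -0.02 (95% interval -0.39 to 0.36). SETD5-AS1 had 64.1 ± 3.84 and 61.9 ± 8.12 CPM, with a difference of 0.05 (-0.19 to 0.29). LINC00641 had 48.3 ± 4.69 and 48.2 ± 4.29 CPM, with a difference of 0.0021 (-0.24 to 0.24). For these the interval excluded a difference of 0.75 in either direction, the minimum used for a call. It did so for BCYRN1 as well, at -0.14 (-0.62 to 0.33). For SOX2-OT, at 0.17 (-0.46 to 0.79), and AC005943.5, at 0.23 (-0.52 to 0.97), the interval did not exclude a difference of that size.

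Of the neighbours of the members, EPCAM differed between the readers. It had 7.56, 5.88 and 7.63 CPM with CBX1 and 12.4, 17.3 and 14.6 CPM with CBX1_W42A. The control, at 9.16, 13.2 and 10.4 CPM, lay above CBX1 and overlapped CBX1_W42A. The log2 fold change of CBX1 against CBX1_W42A was -1.06 (SE 0.19, adjusted p = 0.00356 by edgeR). SRGAP3, next to SETD5-AS1, was higher with CBX1 in every library, with a log2 fold change of 0.56 (95% interval 0.27 to 0.85, adjusted p = 0.039 by edgeR), under the minimum fold. In 5 of 6 omissions of a library its adjusted p was above 0.05, up to 0.18. The other genes around the members gave smaller values. A further 11 genes, which flank a member or, like DNAJC19, touch its end, had 0 calls in each comparison and log2 fold changes between -0.44 and 0.34. Of these, 4 passed the adjusted p under the minimum fold with CBX1 against the control, with log2 fold changes from -0.44 to -0.31: SAFB2, ATP11B, RAD18 and TTC7A. Between the readers only SAFB2 did (-0.43, adjusted p = 0.042 by edgeR). The others were PTPRS, FXR1, MTMR14, ZNF219, HNRNPC and MEX3D.

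The strand of the reads gave a further measure within each library, which does not depend on the scaling between libraries. It uses the gene counts tested above, so it is not separate evidence. At the SETD5-AS1 locus, reads of the lncRNA were set against the sum of its reads and those of THUMPD3 and SETD5 on the opposite strand. SETD5-AS1 made up 9.37%, 10.4% and 9.67% of them in the control, 16.3%, 19.8% and 20.5% with CBX1, and 20.8%, 22.8% and 17.9% with CBX1_W42A. The exact binomial 95% intervals of the control libraries, from 8.48% to 11.6%, were all below those of the reader libraries, which began at 15.01%. They cover counting error only, since read pairs are not independent molecules. The mean share was 9.02 percentage points higher with CBX1 than in the control and 10.7 points higher with CBX1_W42A. In both cases an exact two-sided permutation test gave p = 0.1, the smallest that 3 against 3 libraries allow (adjusted p = 0.225 over 9 tests). Between CBX1 and CBX1_W42A it differed by -1.69 points (exact permutation p = 0.4, adjusted p = 0.72). Most of the reads on the opposite strand were of SETD5, which shares only 965 bases with SETD5-AS1. The log2 fold change of SETD5 against the control was -0.15 with CBX1 and -0.43 with CBX1_W42A, and a fall of SETD5 also raises the share.

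At SOX2-OT, 1 of the 6 genes on the opposite strand had reads, DNAJC19, which encodes a mitochondrial protein and overlaps SOX2-OT by 5 bases at its 5′ end. SOX2-OT made up 6.64%, 4.73% and 7.07% of their summed reads in the control, 9.30%, 15.6% and 11.4% with CBX1 and 10.9%, 17.3% and 7.66% with CBX1_W42A. No control share reached the lowest share with a reader, but the intervals of single libraries overlapped. At BCYRN1 the share against AC073283.4 was 76.9%, 61.7% and 55.6% in the control, 63.5%, 67.5% and 68.0% with CBX1 and 68.8%, 68.9% and 64.7% with CBX1_W42A. There the control spread over the whole range of the reader libraries, and the mean differences of 1.61 and 2.71 points from the control were within its SD of 11.0 points (exact permutation p = 0.9 and 0.7).

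**Figure D5:**
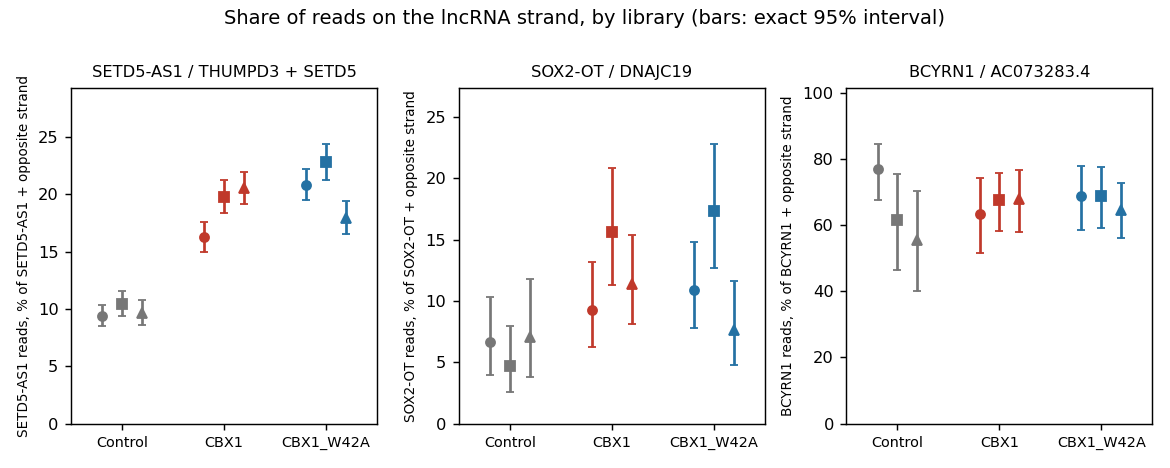
Reads of SETD5-AS1, SOX2-OT and BCYRN1 as a percentage of their own reads plus those of the overlapping genes on the opposite strand, in each library, with the exact binomial 95% interval. SETD5-AS1 lies at 9.37% to 10.4% in the control and at 16.3% to 22.8% with either reader, and BCYRN1 shows no such shift.

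Across the 9 libraries, TINCR, SOX2-OT, SETD5-AS1 and LINC00641 varied together, with Pearson r of log2 CPM between 0.81 and 0.96 for their 6 pairs. BCYRN1 had r between 0.56 and 0.62 with each of these, and AC005943.5 between -0.06 and 0.27. The points share their libraries and the step between the control and both readers, so these values are a description over 9 libraries. The genes whose pattern was most like a member's were sought among 14304 genes. For SETD5-AS1 they were TPTE2P5 (r = 0.99), ALS2CR11 and WDR65 (both 0.98), and for LINC00641 CTA-217C2.1 and CADM2 (both 0.97) and ATXN7 (0.96). For TINCR they were RP11-1C8.4 and PPP1R3B (both 0.98) and NAT1 (0.97), and for SOX2-OT TSNAX-DISC1 and TNFRSF13C (both 0.98) and LCP1 (0.97). For BCYRN1 they were SEMA6B (0.98), TRIM56 (0.96) and FAM160B1 (0.95), and for AC005943.5, the lowest, PHF23 (0.93), IFFO2 (0.90) and APPL2 (0.87). By Spearman's rank correlation, 5 of these 18 genes were again among the first 3 of their member.

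A list of 18 lncRNAs described as acting at chromatin or in the nucleus put the members beside better-known RNAs. Of these H19, NEAT1, MALAT1 and LINC00893 were also named by the study for the CBX7 reader, so they are not independent of that choice. The study named H19 and MALAT1 for the CBX1 reader as well. Their calls with CBX1 against the control were thus known beforehand and add no support. In all, 16 were tested. FIRRE was not found under that name in the table and MEG3 did not pass the filter on low counts. With CBX1 against the control 6 of the 16 were enriched and 0 depleted, where 7.06% of all genes and 14.5% of noncoding genes were enriched. These 6 were KCNQ1OT1, FTX and all those the study had named for CBX7: H19, NEAT1, MALAT1 and LINC00893. The count of 6 is therefore no measure of how the rest of the list behaved. The list had a median of 0.56 on the log2 scale, beside 0.49 over noncoding genes. With CBX1_W42A 2 were enriched, KCNQ1OT1 and FTX, named here after their values were seen. In that comparison 0.974% of all genes and 1.71% of noncoding genes were enriched. The median of the list was 0.26, beside 0.34 over noncoding genes. Between the readers 0 of the 16 were called by edgeR or DESeq2, where edgeR called 0.795% of all genes higher and 0.201% lower. In 2 of the 16, H19 and MALAT1, every CBX1 library was the higher, as in 10.3% of all genes. An unadjusted p below 0.05 by edgeR was found for 4, a share not counted over all genes. The median was 0.11, beside 0.13 over noncoding genes. MALAT1, an abundant RNA of nuclear speckles, had the highest counts, at 1668 ± 88.2 CPM (SD, n = 3) without a reader, 3473 ± 553 with CBX1 and 2652 ± 124 with CBX1_W42A. Its log2 fold change against the control was 1.08 with CBX1 (adjusted p = 9.31e-06 by edgeR) and 0.67 with CBX1_W42A (adjusted p = 0.00187 by edgeR, under the minimum fold). Between the readers it was 0.39, under the minimum fold (adjusted p = 0.075 by edgeR and 0.0253 by DESeq2). NEAT1, the scaffold of paraspeckles, had a log2 fold change against the control of 1.00 with CBX1 (adjusted p = 0.000342 by edgeR). With CBX1_W42A it was 0.60 (adjusted p = 0.0469 by edgeR, under the minimum fold). There its libraries overlapped those of the control, and DESeq2 gave an adjusted p of 0.189. The 4 next by count did not pass the test in any comparison, with log2 fold changes against the control between -0.22 and 0.03: LINC00657 (NORAD), which binds PUMILIO proteins in the cytoplasm, TUG1, JPX and OIP5-AS1.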

How the data were processed

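Chrom-seq RNA of 9 HEK293T libraries was analysed from a table of counts. Per the study's methods and the submitters' processing notes, the authors used fastp (version 0.23.1) for trimming and HISAT2 (version 2.1.0) for alignment to hg19 (GRCh37), and deposited whole-number counts from featureCounts (version 2.0.1) on GENCODE v19, without normalization. The counting over whole spans was inferred, since the listed length equals the span in all 57820 genes. The strand setting was inferred from which nested genes had counts. Groups came from the sample labels, and 0 columns of samples were left unused. The study calls its replicates independent; nothing else was known of the cultures, so p-values measure the spread between these libraries. No pair of replicates was identical.

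In each of 3 comparisons the 6 libraries were fitted with edgeR (version 4.0.16; R version 4.3.3) by the quasi-likelihood test with TMM factors, for genes with a summed count over 18, and p-values were adjusted over all genes tested. The SE is the absolute log2 fold change without edgeR's prior count, divided by the square root of F. The interval is centred on that estimate, while the printed log2 fold change includes the prior count. DESeq2 (version 1.42.0) was an alternative. Further alternatives changed scaling, filter, minimum fold, samples in the fit, replicate block and single libraries. The fits were tested on simulated counts. Likeness used log2 CPM with a prior count of 2 for genes averaging 20 counts or more. Shares and exact tests used SciPy (version 1.17.1).

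The members and the list of lncRNAs were chosen with earlier results of these data known. The text names the members, the genes overlapping them, the nearest tested protein-coding gene on each side, the 3 genes most like each member, and from the list of 18 the 6 with the highest mean counts. Genes on the opposite strand of SOX2-OT without reads are given by count. The olfactory receptor genes and GENCODE v44 were added after the data were seen. GENCODE v44 and the count table share the GRCh37 build (25 chromosomes, 0 genes past a chromosome's end). Same-numbered replicates did not pair the libraries. A sequence within the BCYRN1 interval is not reported here.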

Additional observations from a re-analysis of the deposited data

Results flagged for a closer look

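EPCAM, 0.64 kb downstream of BCYRN1 on the same strand, differed between the readers. Against the control, its log2 fold change was -0.61 with CBX1 (adjusted p = 0.0362 by edgeR, under the minimum fold, and 0.0518 by DESeq2) and 0.43 with CBX1_W42A (adjusted p = 0.206 by edgeR, not called, with libraries that overlapped), and the test of the difference itself gave -1.06 (SE 0.19, 95% interval -1.46 to -0.68, adjusted p = 0.00356 by edgeR). DESeq2 gave an adjusted p of 0.000393 for it, and edgeR's was between 0.0031 and 0.0198 in the 6 omissions of a library. BCYRN1 differed by -0.14 in that comparison and AC073283.4, antisense to BCYRN1, by -0.11. The counts of EPCAM were between 53 and 164 per library. The cause was not tested.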

How the results depend on the processing

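Direction and call of the members against the control held under DESeq2, RLE, upper-quartile and library-size scaling, all 3 other filters, the fit of all 9 libraries and the replicate block. The test against a log2 fold change of 0.75 in place of 0 left 0 members enriched with either reader, and a minimum log2 fold change of 1 left 2 with CBX1 and 1 with CBX1_W42A, since SETD5-AS1 is at 0.91 and 0.83. Leaving out each library in turn gave 2 to 4 members enriched with CBX1, 1 to 2 with CBX1_W42A and 0 between the readers.

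Over all genes, 1330 RNAs were enriched with CBX1 against the control, 838 with at least 10 counts in every library and 170 by the test against log2 0.75. With CBX1_W42A there were 182, and 338 without a filter, 282 with all 9 libraries in one fit, 1 by the test against log2 0.75 and 32 to 103 without 1 library. For CBX1 against CBX1_W42A there were 154, and 244 without a filter, 250 with the replicate block, 102 at a minimum of 1, 2 by the test against log2 0.75 and 68 to 184 without 1 library. The replicate numbers mark no stated culture, correlations of same-numbered deviations were between -0.22 and 0.17, and the block changed no call of a member.

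Signs changed only for differences that were not called. MBD3 with CBX1 was at 0.048 with upper-quartile factors, 0.054 with library size alone and 0.010 with at least 10 counts in every library. With CBX1_W42A these were 0.057, 0.043 and 0.0048. Between the readers, TINCR was at 0.0047 with upper-quartile factors, 0.023 with library size alone, 0.0021 with at least 10 counts and 2e-04 in the fit of 9 libraries, MBD3 was at 0.011 with library size alone and LINC00641 at -3e-04 without a filter.

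Leaving out 1 library gave with CBX1 -0.080 to 0.012 for MBD3 and -0.073 to 0.66 for AC005943.5, and with CBX1_W42A -0.15 to 0.038 for MBD3 and -0.18 to 0.30 for AC005943.5. Between the readers it gave -0.17 to 0.10 for TINCR, -0.055 to 0.085 for LINC00641, -0.34 to 0.019 for BCYRN1, -0.12 to 0.61 for AC005943.5, -0.085 to 0.18 for THUMPD3, -0.052 to 0.42 for SOX2-OT, -0.054 to 0.13 for SETD5-AS1, -0.096 to 0.089 for MBD3 and -0.30 to 0.16 for AC073283.4. The strand share moved between -2.002 and 2.83 points for SOX2-OT between the readers, and for BCYRN1 between -2.98 and 7.70 with CBX1, -1.87 and 8.81 with CBX1_W42A and -2.48 and 0.30 between the readers. SOX2-OT, AC005943.5 and BCYRN1 had 12 to 88 counts per library; the parts of depth and of replicate spread in their intervals were not tested.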
